A study of Homo sapiens with 12 samples.

Results

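The comparison described here set HMEC-1 cells given a miR-143 mimic against HMEC-1 cells given a scrambled RNA. HMEC-1 cells are endothelial cells of small vessels of the human skin that were made immortal. Its members were 6 of the 12 libraries in the series, chosen by their labels: 3 of the miR-143 mimic and 3 of the scrambled control, numbered 2, 3 and 4 in each group. The other 6 libraries, 3 of a miR-126 mimic and 3 of a miR-150 mimic, served as a second reference. All 4 groups shared the cell line, the lipid transfection, a dose of 50 nM small RNA and collection of total RNA 48 h later, so the control is also a cell loaded with a foreign small RNA. A mimic is a synthetic duplex that raises a mature microRNA far above its own level, and the labels give no untransfected group. Whether the numbered replicates were grown apart is not in the labels, and the p-values therefore describe how these libraries varied, possibly for technical reasons alone.

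A microRNA guides Argonaute to messenger RNAs that pair with its seed, the bases near its 5′ end. Pairing in the 3′ UTR shortens the life of the message and lowers its translation. miR-143 is made from a transcript that it shares with miR-145, is abundant in vascular smooth muscle, and is known for effects on the actin cytoskeleton, on RAS and MAPK signalling and on glucose use in tumour cells.

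The duplex can supply both arms of the hairpin. Their mature sequences (RefSeq, GRCh38.p14) are shown because the site counts below rest on their seeds, bases 2 to 8, in capitals.
miR-143-3p: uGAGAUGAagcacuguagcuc
miR-143-5p: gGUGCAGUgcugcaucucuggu
The guide arm, miR-143-3p, lies at chr5:149428978-149428998 on the plus strand and the other arm, miR-143-5p, at chr5:149428944-149428965. A message pairs with the guide's seed where it reads TCATCTC (a 7-mer-m8 site), and the pairing is an 8-mer where an A follows. A match to bases 2 to 7 followed by an A is a 7-mer-A1 site. The next lines show such sites in the 3′ UTRs of genes among the largest falls, as 22 bases of the sense strand, with the match in capitals.
GXYLT1, site 1: caggaaggaattacTCATCTCc
GXYLT1, site 2: tgcctttatacattTCATCTCt
GXYLT1, site 3: gcagtccttcggctTCATCTCA
TPM3: tagccatgtgaaacTCATCTCA
SLC39A10: aattaggacagtccTCATCTCA
HIPK2, site 8: ctccctccccagggTCATCTCA
HIPK2, site 9: ctttctctcccaggTCATCTCA
LIMK1: ctcagcccctgcagTCATCTCA
GOLM1: aataaagtctctatTCATCTCA
PTBP3: attctcaaagtgtcTCATCTCA
KIF3B: gatatttatttgtaTCATCTCt
PLAGL2: accccatccttgctTCATCTCA

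All of these windows lie in 1 exon of the 3′ UTR of a protein-coding transcript (GENCODE 29, GRCh38). Coordinates here are those of the windows. The 3 GXYLT1 windows lie at chr12:42087683-42087704, chr12:42087263-42087284 and chr12:42085741-42085762 on the minus strand. Their matches start at bases 96, 516 and 2038 after the stop codon, in a 3′ UTR of 5941 bases. The TPM3 site is at chr1:154156791-154156812 (minus) and the SLC39A10 site at chr2:195736783-195736804 (plus). HIPK2 held 9 matches in a 3′ UTR of 11357 bases, of which 4 were 8-mers; the pair shown is at chr7:139562326-139562347 and chr7:139562297-139562318 (minus). The LIMK1 site is at chr7:74122111-74122132 (plus), the GOLM1 site at chr9:86026200-86026221 (minus) and the PTBP3 site at chr9:112222128-112222149 (minus). The KIF3B window is at chr20:32334914-32334935 (plus), and its match starts at base 3609 of a 3′ UTR of 3692 bases. The PLAGL2 site is at chr20:32194931-32194952 (minus). The sequences differ outside the match, and 9 of the 12 windows shown are 8-mers. Both HIPK2 windows shown are 8-mers, so this share does not describe all sites of these genes.

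Values were TPM, a transcript's share of all transcripts in its library after adjustment for length, so read depth is unknown. After summing TPM over the transcripts of each symbol, 13750 genes reached 1 TPM in 3 or more libraries and entered the test on log2(TPM + 1). The 6 libraries held 12606 to 13218 genes at 1 TPM or more. Replicates correlated across genes with a Pearson r of 0.971 to 0.977 (miR-143 mimic) and 0.976 to 0.99 (control). One mimic library, replicate 4, favoured short transcripts: deviations and transcript lengths had a Spearman correlation of -0.398 across genes there, 0.289 and -0.00843 in the other 2 mimic libraries, and 0.0575 to 0.241 in the controls. Since genes with long 3′ UTRs have long transcripts and more sites, the counts of all called genes, the site value and the medians by class of site are also given without that library. All 19 endothelial marker genes on the list used were tested, and their summed level was 2809 to 4009 TPM with the mimic and 2774 to 3881 TPM in the control. The 10 epithelial and keratinocyte markers summed to 2.68 to 3.69 and 1.92 to 4.66 TPM, with KRT5 at 0 in all 6 libraries, and the 12 leukocyte markers to 42.7 to 63.0 and 30.3 to 48.8 TPM, with CD3D, MS4A1 and SPI1 at 0. In bulk RNA, fewer cells of a type and less RNA per cell cannot be told apart.

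Messages with a miR-143-3p site were lower with the miR-143 mimic, and the stronger the class of site, the lower they were. The site value of a library is the mean deviation of the 1801 tested genes that hold TCATCTC in the 3′ UTR, minus that of the 10678 that do not, on the log2 scale. It was -0.043, -0.0907 and -0.232 in mimic replicates 2, 3 and 4 and 0.0381, 0.0889 and 0.0857 in control replicates 2, 3 and 4. The groups did not overlap, and replicate 4, the library that favoured short transcripts, was the lowest. The difference was -0.193 (two-sided exact permutation test over libraries, p = 0.1, the smallest that 3 against 3 can give) and, against the other 9 libraries, -0.162 (p = 0.0182; smallest possible 0.00455). Among the other mimics the value was 0.0563 to 0.0692 with miR-126 and 0.0647, 0.0704 and -0.176 with miR-150; the last, miR-150 mimic replicate 4, is the other library that favoured short transcripts.

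With a smooth trend on transcript length removed from each library, the site value differed by -0.147 against the control (exact p = 0.1) and by -0.142 against the other 9 libraries (exact p = 0.00455, the smallest possible). Without mimic replicate 4 the differences were -0.138 and -0.107, and the second no longer passed (exact p = 0.0727, smallest possible 0.0182). The reference of the second still held miR-150 mimic replicate 4, at -0.176. Genes matching the seed of the other arm, miR-143-5p, differed by -0.0792 against the control (exact p = 0.2) and by -0.0522 against the other 9 libraries (exact p = 0.282), and their values overlapped between the groups. The plot of site values by library shows these points.

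**Figure D1:**
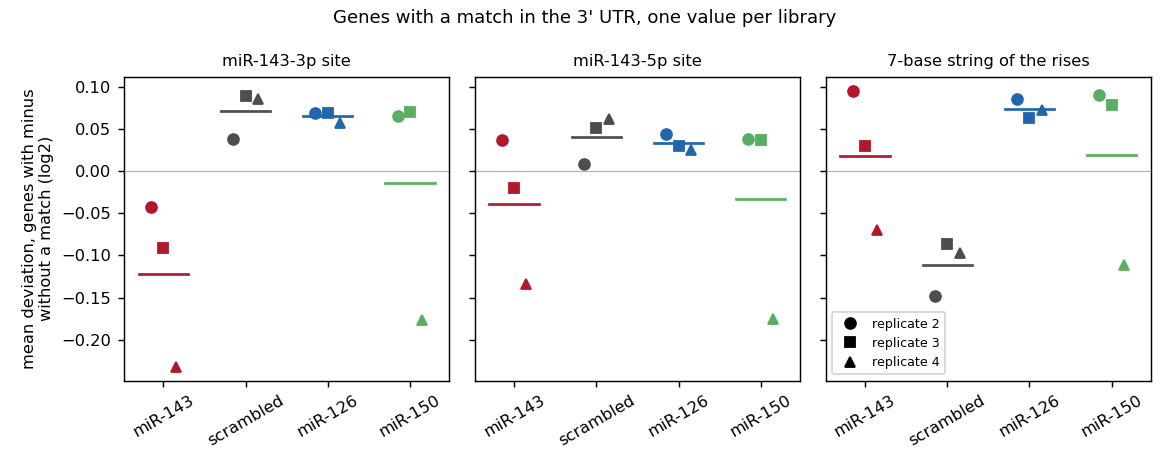
Mean deviation (log2) of genes with a match in the 3′ UTR minus genes without it, 1 point per library (symbol: replicate number; bar: group mean, n = 3), for the seeds of miR-143-3p and miR-143-5p and for the 7-base string described with the rises. For miR-143-3p the 3 mimic points lie between -0.232 and -0.043, under all 3 scrambled points; for the string the 3 scrambled points lie between -0.1485 and -0.0865.

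By the best site in the 3′ UTR, the median log2 fold change against scrambled RNA was -0.25 for 607 genes with an 8-mer, -0.18 for 1194 with a 7-mer-m8, -0.14 for 1236 with a 7-mer-A1, -0.08 for 1827 with only a 6-mer and 0.01 for 7615 with none. Past the threshold (limma, Benjamini-Hochberg adjusted p under 0.05), 204 of all 13750 genes were lower (1.48%) and 253 were higher (1.84%), against 46 lower among genes with an 8-mer (7.58%), 39 with a 7-mer-m8 (3.27%), 23 with a 7-mer-A1 (1.86%), 27 with only a 6-mer (1.48%) and 64 with none (0.84%). The share with a lower call fell in that order of sites, and the share with a higher call did not: it was 1.15% for an 8-mer and 2.36% for no site. The 3′ UTRs also grew shorter in that order, from a median of 3447 bases (8-mer) to 836 bases (no site). Their length was not matched between the classes. Against the other 2 mimics the median log2 fold changes kept the same order, from -0.17 (8-mer) to 0.00 (no site). They ran from -0.06 to 0.05 without miR-143 mimic replicate 4 and from -0.28 to -0.04 without miR-150 mimic replicate 4. With both of these libraries left out, which favour short transcripts, they ran from -0.15 to 0.00. Against the control the medians without mimic replicate 4 ran from -0.14 to 0.06 and with the length trend removed from -0.16 to 0.04, in the same order of classes.

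The count of sites in a 3′ UTR moved the median less than the class did. Genes with 1 site had a median of -0.19 (1477 genes, 5.01% lower), genes with 2 sites -0.20 (256 genes, 3.52% lower) and genes with 3 or more -0.24 (68 genes, 2.94% lower). Lower calls were most frequent for sites in short 3′ UTRs. With genes divided into 4 equal classes of 3′ UTR length, 12 of 86 genes with a site were lower in the shortest class (13.95%) against 1.09% of those without. In the next classes the shares were 9.43% against 1.15%, 5.86% against 0.97% and, in the longest, 2.34% against 1.05%. So at every length the share was higher with a site, and the gap narrowed as the 3′ UTR grew. In the shortest class the median log2 fold change was -0.08 with a site and 0.06 without. In the next classes these medians were -0.16 and 0.01, -0.19 and -0.07 and, in the longest, -0.21 and -0.13. Genes without a site thus also had lower medians as the 3′ UTR grew.

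**Figure D2:**
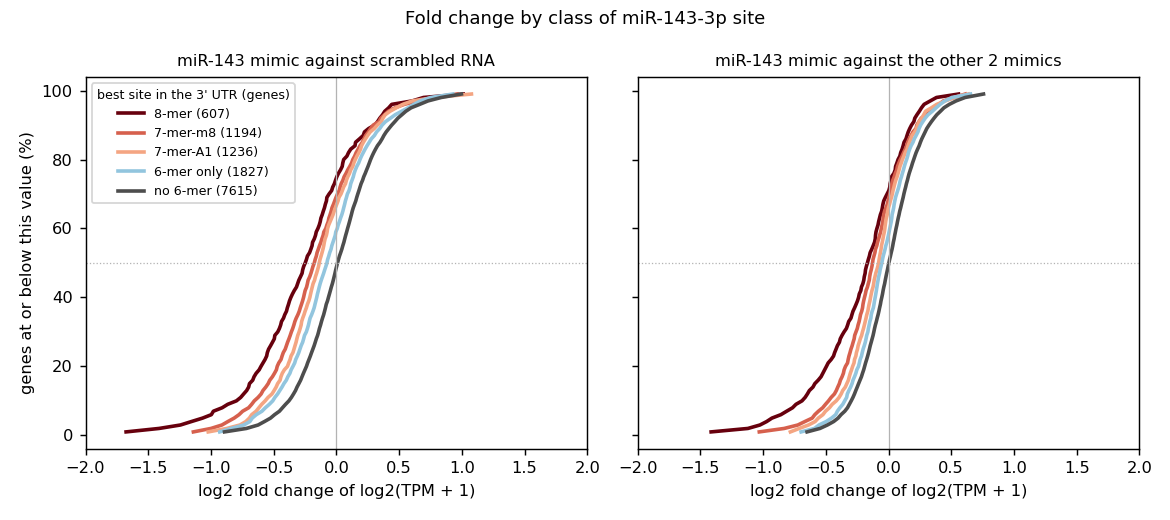
Cumulative share of genes (%) against log2 fold change of log2(TPM + 1) for each class of best miR-143-3p site, with the miR-143 mimic against scrambled RNA (left) and against the other 2 mimics (right). At 50% the curves lie left to right in the order 8-mer, 7-mer-m8, 7-mer-A1, 6-mer only and no 6-mer, with medians from -0.25 to 0.01 on the left.

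Read the other way, 85 of the 199 lower genes with an annotated 3′ UTR held the 7-mer (42.7%), against 26 of 252 higher genes (10.3%) and 14.4% of all tested genes. Without mimic replicate 4, 76 genes were lower and 106 higher, and the lower ones included 74 with a 3′ UTR, of which 33 held it (44.6%). Against the other 2 mimics, 145 genes were lower (1.05%) and 132 higher (0.96%), and 53.5% of the lower and 5.38% of the higher genes with a 3′ UTR held the 7-mer. Residuals of same-numbered mimic libraries moved together, and a block for replicate number gave 550 genes lower and 607 higher, of which 36.1% and 7.0% with a 3′ UTR held the 7-mer. In all, 74 genes were lower in both comparisons, and 37 of them held the 7-mer; both comparisons use the same miR-143 libraries.

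Matches to the seed ahead of the 3′ UTR went with smaller differences. Among genes without a 3′ UTR site, the median log2 fold change was 0.00 for 9203 genes with no match in the 5′ UTR or coding sequence, -0.12 for 1260 genes with 1 match and -0.17 for 215 genes with 2 or more, where 0.89%, 1.98% and 3.26% of them were lower. Their transcripts also grew longer, with medians of 2054, 2825 and 3751 bases, and the part of length in this trend was not tested. Among the genes described below, the falls TAF10 and ASNA1 each held 2 such matches. The fall HMGA2 and the rises S1PR1 and CANX each held 1.

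The 15 largest falls that met the rule for naming genes ranged from -2.46 to -1.61 in log2 fold change, and 9 of the 14 with an annotated 3′ UTR held the 7-mer, 8 of them as an 8-mer. The same rule named 15 rises, of which 2 held it. Of these falls, 14 are described; 10 of the 15 were also lower against the other 2 mimics (HIPK2 in 1 of 9 fits without 1 library), and 13 remained past the threshold in every fit that left out 1 of the 6 libraries.

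A glycosyltransferase gene and a cytoskeletal gene led the falls. GXYLT1, the enzyme that adds xylose to the glucose on EGF repeats of NOTCH receptors, measured 10.7, 8.75 and 5.40 TPM in mimic replicates 2, 3 and 4 and 47.1, 45.1 and 54.5 TPM in the controls. It fell by 2.46 (SE 0.31, limma adjusted p = 0.00236) and was also lower than with the other mimics (log2 fold change -2.01, adjusted p = 0.00455), whose libraries held 16.6 to 45.8 TPM. TPM3, a tropomyosin that lies along actin filaments and steadies them, measured 117, 162 and 109 TPM with the mimic and 619, 770 and 653 TPM in the control. It fell by 2.40 (SE 0.18, adjusted p = 0.000133), and by the same margin against the other mimics (-2.42, adjusted p = 2.57e-05). For both genes each of the 3 mimic libraries lay below all 9 others.

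SLC39A10, a zinc importer of the plasma membrane, measured 6.93, 5.08 and 3.81 TPM against 21.1, 23.0 and 28.6 TPM (log2 fold change -2.03, SE 0.33, adjusted p = 0.00703). Its level with the other mimics was 4.38 to 14.7 TPM, below every control, so that the difference from them was -0.97 and did not pass (adjusted p = 0.13; 0.0487 with the replicate block). HIPK2, a nuclear kinase that acts on p53, measured 7.0, 4.46 and 2.95 TPM against 15.4, 17.5 and 23.0 TPM (-1.80, SE 0.42, adjusted p = 0.0408). With 9 sites, its call was lost in all 6 fits without 1 library. LIMK1, the kinase that phosphorylates cofilin and thereby slows the turnover of actin filaments, measured 12.7, 15.1 and 10.8 TPM against 41.9, 48.1 and 46.5 TPM (-1.75, SE 0.21, adjusted p = 0.0017). It was also lower than with the other mimics (-0.97, adjusted p = 0.0213), which held 20.6 to 36.0 TPM.

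The other falls with a site had roles in secretion, splicing and transport. GOLM1, a membrane protein of the Golgi, measured 44.7, 70.9 and 40.0 TPM against 153, 192 and 148 TPM (-1.68, SE 0.25, adjusted p = 0.00515). PTBP3, a polypyrimidine tract-binding regulator of splicing, measured 25.8, 22.7 and 12.4 TPM against 57.4, 68.1 and 67.9 TPM (-1.67, SE 0.39, adjusted p = 0.0408), a call lost in all 6 fits without 1 library. Against the other mimics PTBP3 had an adjusted p of 0.0628, and 0.0152 with the replicate block. KIF3B, a motor subunit of kinesin-2, measured 10.8, 11.2 and 6.30 TPM against 28.8, 30.3 and 30.8 TPM (-1.61, SE 0.24, adjusted p = 0.00493). PLAGL2, a zinc finger transcription factor next in order of size and added after its values were seen, measured 7.70, 8.95 and 5.48 TPM against 21.4, 25.3 and 25.3 TPM (-1.60, SE 0.24, adjusted p = 0.00527). In each of these genes the lowest of the 3 mimic values was in replicate 4.

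Of the described falls, 6 had no site found in a 3′ UTR, among them AC087721.2, which had no annotated 3′ UTR to search. TAF10, a subunit of the general transcription factor TFIID, measured 34.3, 39.0 and 49.7 TPM against 145, 148 and 131 TPM (-1.77, SE 0.14, adjusted p = 0.000199), and ASNA1, the ATPase that delivers tail-anchored proteins to the endoplasmic reticulum, 41.7, 49.1 and 52.8 TPM against 154, 149 and 149 TPM (-1.64, SE 0.11, adjusted p = 5.9e-05). Both were highest among the mimic libraries in replicate 4, and both were lower than with the other mimics (-1.91 and -1.53, adjusted p = 2.57e-05 for each). TAF10 overlaps ILK, and whether reads were assigned by strand is not stated, so its value is uncertain. AC087721.2, a locus that overlaps NUSAP1 and is uncertain for that reason, measured 25.3, 18.0 and 10.8 TPM against 58.0, 49.9 and 68.6 TPM (-1.72, SE 0.28, adjusted p = 0.00733).

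PRRX1, AK5 and HMGA2 held no site in the 3′ UTR either, and here the other mimics were low too. PRRX1, a homeobox transcription factor of mesenchymal cells, measured 1.22, 0.440 and 0.848 TPM against 5.91, 5.22 and 7.89 TPM (-2.01, SE 0.26, adjusted p = 0.00255), but 0.807 to 2.31 TPM with the other mimics (-0.34, adjusted p = 0.601). HMGA2, an architectural chromatin protein, measured 16.5, 19.7 and 12.4 TPM against 48.2, 54.9 and 63.9 TPM (-1.73, SE 0.24, adjusted p = 0.00348), and 12.4 to 31.4 TPM with the other mimics (-0.54, adjusted p = 0.29). AK5, an adenylate kinase, measured 21.6, 37.3 and 18.1 TPM against 89.0, 85.2 and 90.9 TPM (-1.81, SE 0.22, adjusted p = 0.00173), and its 42.0 to 64.1 TPM with the other mimics lay between those ranges (-1.08, adjusted p = 0.0149). For these 3 genes, control libraries were the highest of the 12.

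**Figure D3:**
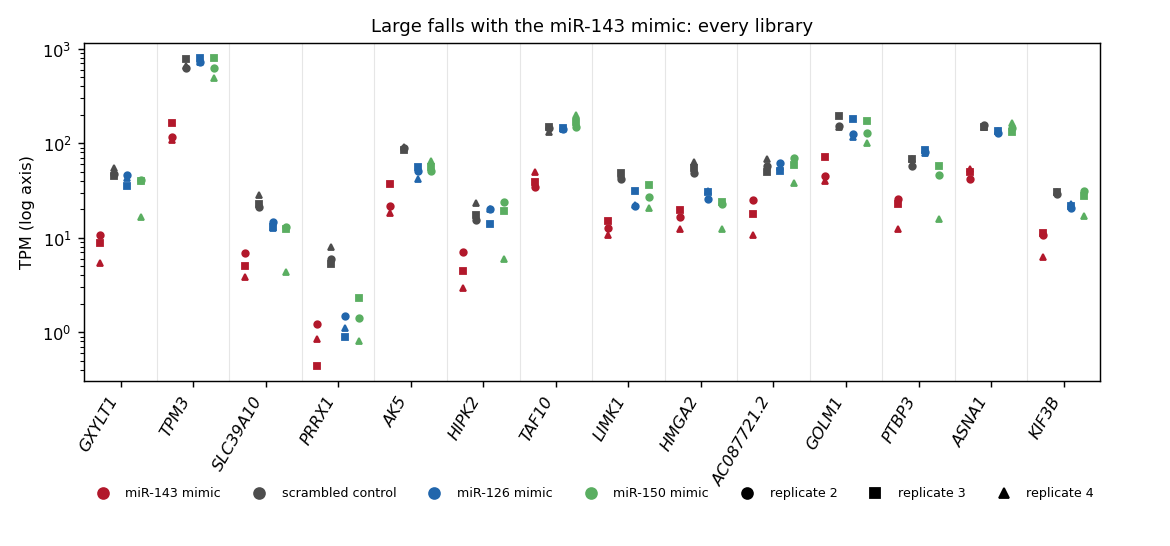
TPM (log axis) of 14 of the 15 largest falls in all 12 libraries, coloured by group, with a symbol for each replicate number. GXYLT1, TPM3, TAF10 and ASNA1 are low in the 3 miR-143 mimic libraries alone, while PRRX1 and HMGA2 are low with all 3 mimics.

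The deposited table resolved these genes into transcripts, and 70 of 58341 transcripts were lower (0.12%) and 111 higher (0.19%) by the same test. In 808 genes that have transcripts both with and without the 7-mer in the 3′ UTR, 12 of 1139 transcripts with it and 0 of 1611 without it were lower. Their medians were -0.15 and -0.16, so calls were seen in 1 kind of transcript while the medians lay close together; the abundance of the 2 kinds was not matched and the difference was not tested. TPM3 shows the pattern within 1 gene. Its 3 main transcripts, which all hold the site, measured 59.0, 75.4 and 53.5 against 318, 307 and 276 TPM (TPM3-207, log2 fold change -2.26, SE 0.13, adjusted p = 0.000104), 28.03, 28.2 and 18.7 against 180, 221 and 208 TPM (TPM3-205, -2.99, SE 0.24, adjusted p = 0.001) and 9.72, 22.2 and 16.8 against 56.5, 79.6 and 52.7 TPM (TPM3-208, -1.94, SE 0.26, adjusted p = 0.0128).

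Protein-coding TPM3 transcripts with a shorter 3′ UTR that lacks the site were rare. TPM3-201, with 321 bases of 3′ UTR, measured 0.416, 0.965 and 2.995 against 6.11, 1.34 and 5.01 TPM (-1.06, SE 0.47, adjusted p = 0.546), and TPM3-211, with 360 bases, 0.297, 2.37 and 1.43 against 1.89, 3.27 and 2.01 TPM (-0.60, SE 0.41, adjusted p = 0.735). Their ranges overlapped the controls, and the difference between transcripts with and without the site was not tested. GXYLT1 kept 2 of its sites in its short 3′ UTR of 641 bases: the long transcript GXYLT1-202 differed by -2.42 (adjusted p = 0.00661) and the short GXYLT1-201, at 2.11, 1.99 and 0.882 against 8.58, 9.54 and 11.9 TPM, by -2.07 (adjusted p = 0.114). In AK5, 3 transcripts fell by 1.40 to 2.28 (AK5-203, AK5-212 and AK5-209, adjusted p = 0.0144, 0.0211 and 0.014). AK5-203 holds no site in its 3′ UTR of 1299 bases, and AK5-212 and AK5-209 had no annotated 3′ UTR to search. In ASNA1, both transcripts at 2 TPM or more fell, by 1.67 and 1.54 (adjusted p = 0.00519 and 0.0063).

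The 15 largest rises ran from 1.46 to 2.16. For 12 of them the difference from the other mimics did not pass, and in the examples that follow the controls alone stood low. MNAT1, which assembles the CDK-activating kinase, measured 84.0, 94.1 and 94.6 TPM with the miR-143 mimic, 20.7, 18.3 and 19.8 TPM in the control, and 77.9 to 87.5 TPM with the other mimics. It rose by 2.16 against the control (SE 0.10, adjusted p = 1.59e-06) and differed by 0.14 from the other mimics (adjusted p = 0.571). NDUFB5, a subunit of respiratory complex I, measured 149, 145 and 171 TPM against 46.6, 58.4 and 42.9 TPM (1.64, SE 0.14, adjusted p = 0.000305). The endoplasmic reticulum chaperone CANX measured 640, 560 and 379 TPM against 155, 197 and 174 TPM (1.55, SE 0.26, adjusted p = 0.00894), a call lost without control replicate 2. NSF, the ATPase that takes apart SNARE complexes after membrane fusion, measured 59.4, 48.9 and 44.5 TPM against 18.2, 18.0 and 16.6 TPM (1.47, SE 0.15, adjusted p = 0.000644), and 36.7 to 73.8 TPM with the other mimics.

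Of these 15 rises, 12 hold the 7-base string GGTTGTG in the 3′ UTR, which 10.3% of all tested genes with a 3′ UTR hold. The string had been singled out in an earlier scan of these same libraries for being low in the controls, so its counts are a description and support nothing. Of the 252 higher genes with a 3′ UTR, 33.7% held it; of the genes higher against the other 2 mimics, 9.23% did. Its carriers stood at -0.1485, -0.0865 and -0.0974 in the 3 controls, at 0.0948, 0.0295 and -0.0693 in the miR-143 libraries and at 0.0625 to 0.0904 in 5 of the 6 other mimic libraries, on the scale of the site value above. The remaining one, miR-150 mimic replicate 4, stood at -0.111. In words, genes with the string were low in the scrambled RNA libraries and near or above 0 with each mimic except in the 2 libraries that favour short transcripts.

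Of the 15 rises, 3 were also higher than with the other mimics, namely EDNRB, OSGIN1 and DKK3. OSGIN1 overlaps AC009119.2, so its value is uncertain. EDNRB, the endothelin receptor B, measured 21.3, 11.8 and 14.96 TPM with the miR-143 mimic, 4.70, 4.36 and 4.53 TPM in the control and 2.01 to 9.68 TPM with the other mimics (1.58 against the control, SE 0.29, adjusted p = 0.0133; 1.42 against the mimics, adjusted p = 0.0156). It passed against the control in 2 of 6 fits without 1 library, those without mimic replicate 3 and without control replicate 3, and without mimic replicate 4 its adjusted p was 0.0511. OSGIN1, a stress-induced growth inhibitor, measured 11.5, 10.4 and 11.7 TPM against 3.01, 3.64 and 3.35 TPM and 3.10 to 6.93 TPM with the other mimics (1.49, SE 0.21, adjusted p = 0.00382; 1.15, adjusted p = 0.00887). DKK3, a secreted relative of the WNT inhibitors of the Dickkopf family, measured 239, 257 and 242 TPM against 81.0, 97.1 and 76.8 TPM in the control (1.53, SE 0.15, adjusted p = 0.00051); it was 236 to 270 TPM with miR-126 and 84.9 to 128 TPM with miR-150, and the call against the mean of both mimics (0.61, adjusted p = 0.0315) was lost in 7 of 9 fits without 1 library.

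The remaining rises were S1PR1, through which endothelial cells sense sphingosine-1-phosphate (170, 135 and 150 against 45.8, 56.0 and 49.1 TPM; 1.57, SE 0.17, adjusted p = 0.000788), the kinase UHMK1, SULT1A4, C3orf52, the RNA-binding protein SNU13, the mitochondrial asparaginyl-tRNA synthetase NARS2, TPD52L2 and the dermatan sulfotransferase CHST14, with log2 fold changes from 1.46 to 1.92. UHMK1 passed in 1 of the 6 fits without 1 library, the one without mimic replicate 4, and SULT1A4 in 1, the one without control replicate 3. SULT1A4 has a near-identical copy, SULT1A3, and reads may be split between them. C3orf52 overlaps GCSAM, so its value is uncertain too. For these 8 genes the difference from the other mimics did not pass.

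**Figure D4:**
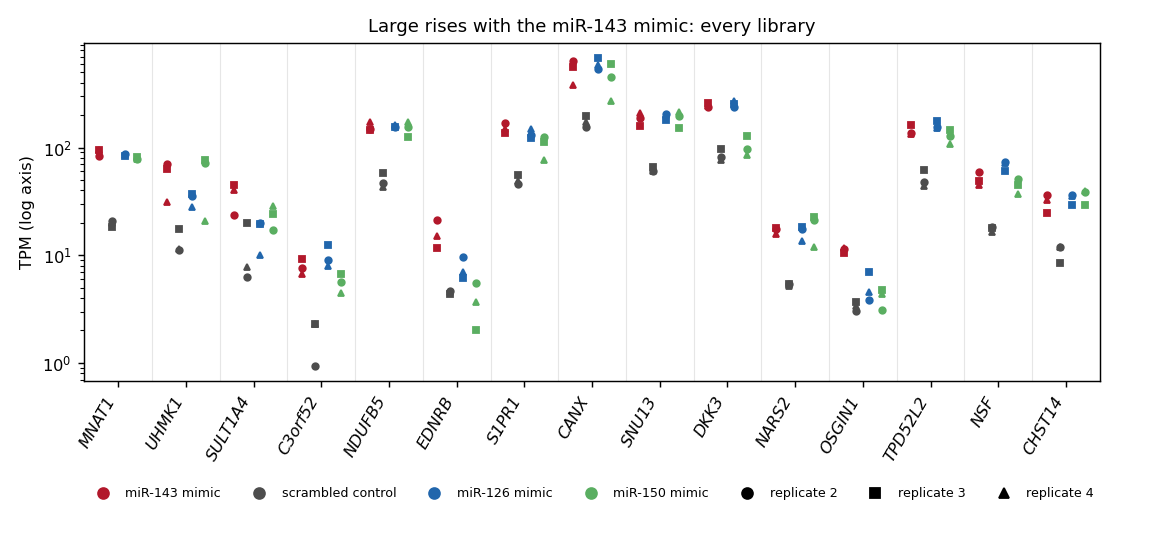
TPM (log axis) of the 15 largest rises in all 12 libraries, coloured by group, with a symbol for each replicate number. For MNAT1, NDUFB5, CANX, SNU13 and NSF the 3 scrambled points are the lowest and the 3 mimics lie together; EDNRB and OSGIN1 are highest with miR-143.

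Against the other 2 mimics, the 10 largest falls held TPM3, GXYLT1, TAF10, AC087721.2, ASNA1 and GOLM1 from the list above and 4 more, and 7 of the 10 held the 7-mer. GALC, the lysosomal galactosylceramidase, measured 7.23, 7.06 and 5.84 TPM with miR-143, 16.4 to 23.4 TPM in the control and 13.9 to 31.0 TPM with the other mimics (-1.53, adjusted p = 0.00152; -1.43 against the control, adjusted p = 0.00289). The keratin KRT80 (1.38, 2.34 and 1.32 TPM; -1.60, adjusted p = 0.0266, lost in 7 of 9 fits without 1 library) and the trefoil peptide TFF3 (1.87, 3.54 and 2.07 TPM; -1.56, adjusted p = 0.0123) were low genes that did not pass against the control (adjusted p = 0.135 and 0.056). CA2, a carbonic anhydrase, measured 2.43, 2.67 and 1.29 TPM with miR-143 and 2.50 to 4.08 TPM in the control but 14.4 to 16.7 TPM with miR-150, against 3.72 to 6.09 TPM with miR-126 (-1.63 against both, adjusted p = 0.00304).

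Of the 10 largest rises against the other mimics, several encode enzymes of redox and steroid metabolism. NQO1, a quinone reductase, measured 737, 578 and 816 TPM with miR-143, 311, 278 and 291 TPM in the control and 280 to 360 TPM with the other mimics. It rose by 1.26 against the control (SE 0.13, adjusted p = 0.000645) and by 1.21 against the mimics (adjusted p = 0.000685), and its own 3′ UTR holds an 8-mer. AKR1C1, an aldo-keto reductase, measured 18.4, 15.7 and 23.4 TPM against 5.13, 9.15 and 8.42 TPM and 4.94 to 9.02 TPM with the other mimics (1.25, adjusted p = 0.0216; 1.37, adjusted p = 0.00887). Its near-identical relatives AKR1C2 (6.72, 5.92 and 9.51 against 2.30, 3.43 and 1.82 TPM) and AKR1C3 (34.3, 30.2 and 47.0 against 17.7, 17.9 and 20.4 TPM) were higher in both comparisons too, and reads may be split among the 3. Against the control each of the 3 calls was lost in 4 of 6 fits without 1 library, among them the fit without mimic replicate 4.

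SLC7A11, the cystine importer that feeds glutathione synthesis, measured 18.2, 7.22 and 8.35 TPM with miR-143, 3.14, 4.07 and 5.16 TPM in the control and 1.37 to 4.28 TPM with the other mimics (1.42 against the mimics, adjusted p = 0.0317, lost in 5 of 9 fits without 1 library; 1.17 against the control, adjusted p = 0.0941). It holds 2 8-mer sites, and its 3 mimic values lay above all 9 others. HSD11B1, which converts cortisone to cortisol, measured 4.35, 5.06 and 6.45 TPM against 1.94, 1.98 and 2.62 TPM (0.98, limma adjusted p = 0.0387, lost in all 6 fits without 1 library). Against the mean of the other 2 mimics HSD11B1 differed by 1.31 (limma adjusted p = 0.00649). It measured 2.95 to 3.39 TPM with miR-126, above every control, and 0.282 to 1.06 TPM with miR-150. The sphingosine-1-phosphate phosphatase SGPP1 and SOWAHC were at control levels with miR-143 (17.8, 21.3 and 11.4 against 16.9, 21.6 and 15.5 TPM for SGPP1; log2 fold changes -0.12 and 0.05) and low with the other mimics (2.18 to 9.44 TPM for SGPP1). NMRAL2P overlapped its controls as well (0.52 against the control, adjusted p = 0.514). The calls of SGPP1 and NMRAL2P against the mimics were lost in 7 and 6 of 9 fits without 1 library. These are values of single genes, and no list of redox genes was tested.

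Of 32 genes reported as miR-143 targets in other systems, 27 were tested, and their median log2 fold change was -0.52, against -0.04 over all genes. In the list 6 genes were lower (1.48% over all genes) and 0 higher (1.84%), and 14 of the 27 had all 3 mimic libraries below all 3 controls, as 13.9% of all genes had. A 7-mer is held by 19 of the 27 and by 5 of the 6 that fell. Without mimic replicate 4, 2 of the 6 stayed past the threshold, while lower calls over all genes went from 204 to 76. Against the other 2 mimics, 4 of the 27 were lower (FSCN1, LIMK1, ASAP3 and PRKCE), against 1.05% of all genes. These calls were lost in 6, 2, 3 and 8 of 9 fits without 1 library.

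Besides LIMK1, the falls were in genes of glucose use, the cytoskeleton and growth factor supply. HK2, the hexokinase of glycolysis, was a low gene here, at 1.36, 2.42 and 0.827 TPM against 4.89, 6.15 and 4.69 TPM (-1.34, SE 0.32, adjusted p = 0.0444; against the mimics -0.99, adjusted p = 0.107, and 0.00753 with the replicate block). FSCN1, fascin, which bundles actin filaments, measured 102, 86.4 and 100.4 TPM against 156, 138 and 165 TPM (-0.67, SE 0.14, adjusted p = 0.0278) and holds no 7-mer in the annotated 3′ UTR. ASAP3, a GTPase-activating protein for ARF, measured 6.89, 4.12 and 4.17 TPM against 13.3, 10.6 and 12.4 TPM (-1.14, SE 0.23, adjusted p = 0.02). IGFBP5, a binding protein for insulin-like growth factors, measured 63.4, 55.5 and 33.7 TPM against 123, 145 and 113 TPM (-1.34, SE 0.30, adjusted p = 0.0365). IGFBP5 was lower still with miR-126, at 29.6 to 37.8 TPM. The calls of HK2, FSCN1 and ASAP3 were lost in 4 or 5 of the 6 fits without 1 library and that of IGFBP5 in all 6.

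The other targets did not pass against the control. The kinase ERK5 (MAPK7) measured 18.5, 22.0 and 16.3 TPM against 24.0, 26.0 and 31.1 TPM (-0.50, SE 0.19, adjusted p = 0.201) and the ETS factor ELK1 21.8, 24.96 and 17.2 TPM against 31.8, 33.8 and 34.2 TPM (-0.63, SE 0.17, adjusted p = 0.0738), both without overlap; against the other mimics ELK1 had an adjusted p of 0.124, and 0.0348 with the replicate block. MAPK7 overlaps B9D1 and MFAP4, and MDM2 overlaps CPM, so their values are uncertain. PRKCE, protein kinase C epsilon, measured 20.6, 19.8 and 13.4 TPM against 21.5, 33.6 and 29.3 TPM (-0.62, adjusted p = 0.266) and passed against the other mimics alone (-1.15, adjusted p = 0.0276). AKT1 (-0.30), the hyaluronan receptor CD44 (-0.69), IGF1R (-0.70), DNMT3A (-0.63), VCAN (-0.93), ITGA6 (-0.24) and MDM2 (-0.62) had adjusted p of 0.103 to 0.714. Against the other mimics MDM2 differed by -0.95 (adjusted p = 0.436, and 0.00282 with the replicate block). SRGAP2 (0.04) and CFL2 (-0.08) were the nearest to 0. A missed threshold does not show that these genes were unchanged, since the SE of the 21 genes that missed it ran from 0.17 to 0.66.

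**Figure D5:**
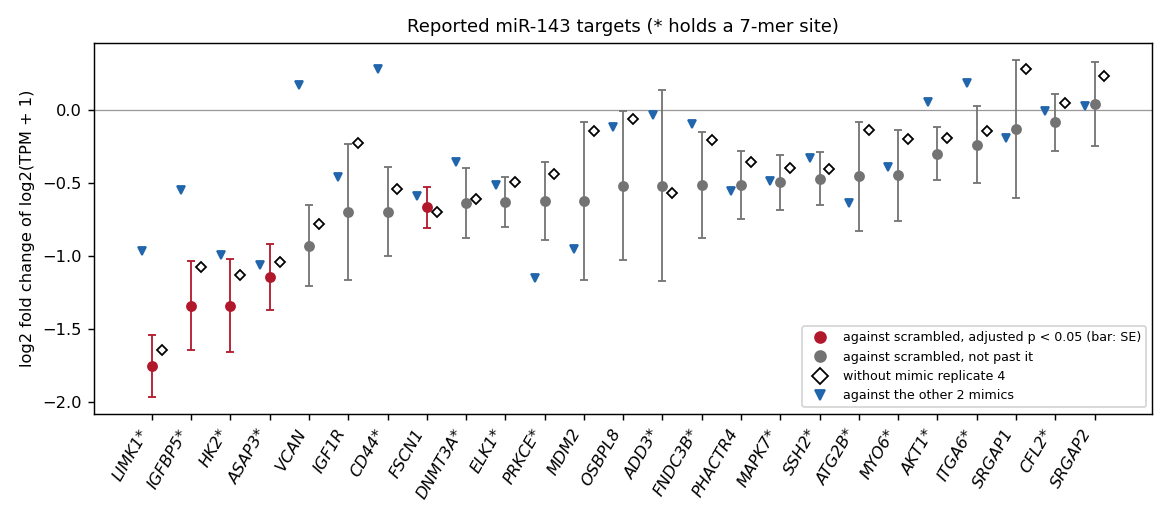
Log2 fold change of 25 of the 27 tested genes reported as miR-143 targets (circles with SE bars; red where the adjusted p was under 0.05), with the value without mimic replicate 4 (diamonds) and against the other 2 mimics (triangles). LIMK1 is the lowest of those plotted at -1.75; the diamonds of IGF1R, MDM2 and OSBPL8 lie nearer 0 than their circles.

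Lists of genes by role follow, each to be read against 1.48% lower and 1.84% higher calls and a median of -0.04 over all genes. The share of all genes at an unadjusted p under 0.05 in limma was not computed. List counts at that level are therefore descriptions and show no excess. Among 59 actin filament proteins (median 0.08), TPM3 and FSCN1 fell and the myosin regulatory light chains MYL12A and MYL12B rose. MYL12A measured 995, 1069 and 1111 TPM against 840, 833 and 785 TPM (0.37, SE 0.08, adjusted p = 0.0352) and MYL12B 1400, 1438 and 1663 TPM against 1137, 1061 and 1126 TPM (0.43, SE 0.10, adjusted p = 0.0322). Both rises were lost in all 6 fits without 1 library, and both were also higher than with the other mimics (0.37 and 0.52, adjusted p = 0.0234 and 0.00877, lost in 6 and 1 of 9 fits without 1 library). MYL12A and MYL12B are near-identical neighbours, and reads may be split between them. Without mimic replicate 4, TPM3 was the only call of this list.

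Among 43 RAS and MAPK genes (median -0.25), NRAS, MAPK3 and DUSP4 fell, and all 3 hold the 7-mer. NRAS measured 49.8, 53.3 and 35.5 TPM against 89.3, 97.1 and 98.2 TPM (-1.04, SE 0.22, adjusted p = 0.0254, passed in 1 of 6 fits without 1 library, the one without mimic replicate 3; against the other mimics adjusted p = 0.115, and 0.0255 with the replicate block). MAPK3, the kinase ERK1, measured 55.0, 49.4 and 49.9 TPM against 111, 96.6 and 114 TPM (-1.04, SE 0.14, adjusted p = 0.00255) and was lower than with the other mimics (-1.15, adjusted p = 0.00102), passing in every fit without 1 library. DUSP4, a phosphatase that switches MAP kinases off, measured 20.1, 24.7 and 19.9 TPM against 32.4, 31.9 and 35.3 TPM (-0.61, SE 0.14, adjusted p = 0.0426, lost in all 6 such fits). RRAS2 rose by 1.23 (adjusted p = 0.00267) and, at 89.0 to 139 TPM, was as high with the other mimics.

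Of 44 tested genes of the extracellular matrix and its proteases (median -0.30), 7 were lower and none higher, and 11 lay below all 3 controls, as 13.9% of all genes did. The list's median against the other 2 mimics was 0.17, with 4 genes higher (0.96% over all genes) and 0 lower (1.05%). Its genes summed to 9850 to 11700 TPM with miR-143 and 12380 to 14770 TPM in the control. With miR-126 they summed to 9674 to 10650 TPM and with miR-150 to 7334 to 9677 TPM. THBS1, thrombospondin-1, measured 571, 298 and 285 TPM against 1124, 850 and 1372 TPM (-1.58, SE 0.34, adjusted p = 0.0286); it overlaps FSIP1 and is uncertain for that. MMP14, a membrane-anchored matrix metalloproteinase, measured 161, 173 and 142 TPM against 304, 311 and 327 TPM (-0.98, SE 0.16, adjusted p = 0.00848). The metalloprotease ADAM19 measured 22.7, 20.4 and 17.8 TPM against 41.5, 33.5 and 48.9 TPM (-0.98, SE 0.21, adjusted p = 0.0294). MMP14 and ADAM19 were lower still with the other mimics, at 63.2 to 101 TPM and 7.34 to 13.4 TPM, so that miR-143 stood between them and the control (1.01 and 0.98 higher than the mimics, adjusted p = 0.00533 and 0.0206, lost in 0 and 4 of 9 fits without 1 library). ADAMTS18 measured 0.531, 0.716 and 0.674 TPM against 5.55, 3.53 and 5.68 TPM (-1.83, SE 0.28, adjusted p = 0.00527).

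The urokinase gene PLAU (86.2, 119 and 84.4 against 162, 205 and 162 TPM; -0.87, adjusted p = 0.0315) and the metalloproteinase inhibitor TIMP3 (15.7, 13.8 and 15.2 against 31.4, 20.8 and 35.5 TPM; -0.90, adjusted p = 0.0471) complete the described genes of this list. The calls of THBS1, ADAM19, PLAU and TIMP3 were lost in 4 or 5 of 6 fits without 1 library and that of MMP14 in the fit without control replicate 4. Without mimic replicate 4, 3 of the 7 calls stayed, while lower calls over all genes went from 204 to 76. In TGF-beta signalling (30 genes, median -0.11), LTBP1, which tethers latent TGF-beta to the matrix, rose from 34.7, 29.6 and 33.1 TPM to 81.9, 62.6 and 57.9 TPM (1.02, SE 0.18, adjusted p = 0.0114). TGFBI, an adhesion protein induced by TGF-beta, fell from 502, 532 and 517 TPM to 337, 344 and 371 TPM (-0.56, SE 0.10, adjusted p = 0.0103), and was 0.46 higher than with the other mimics (adjusted p = 0.0184, lost in 5 of 9 fits without 1 library). Both calls against the control were lost without control replicate 4. Among 31 integrin and focal adhesion genes (median -0.14), only FHL2, a LIM protein of focal adhesions, passed, with 60.4, 58.1 and 66.2 TPM against 94.9, 116 and 101 TPM (-0.74, SE 0.11, adjusted p = 0.00501).

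In the VEGF and angiopoietin list (26 genes, median -0.07), 3 genes rose and none fell. ESM1, endocan, measured 51.1, 46.1 and 54.6 TPM against 25.5, 35.1 and 25.7 TPM (0.81, SE 0.16, adjusted p = 0.0192), the peptide hormone apelin (APLN) 170, 199 and 188 TPM against 96.2, 127 and 121 TPM (0.70, SE 0.13, adjusted p = 0.0123), and RCAN1, an inhibitor of calcineurin, 30.7, 39.3 and 31.0 TPM against 15.8, 20.4 and 14.04 TPM (0.97, SE 0.20, adjusted p = 0.025). None of the 3 passed without mimic replicate 4, and none was higher than with the other mimics in the fit without a block; with the block, RCAN1 was (adjusted p = 0.00533). In the NOTCH list (27 genes, median -0.12) GXYLT1 alone passed. Among sphingosine-1-phosphate and endothelin genes (22 genes, median -0.25), S1PR1 and EDNRB rose, and RGS4, which shortens G protein signals, fell from 321, 404 and 349 TPM to 155, 171 and 113 TPM (-1.30, SE 0.23, adjusted p = 0.0117, lost without mimic replicate 4 and without control replicate 4).

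In the list of leukocyte adhesion and chemokine genes (21 genes, median 0.38), the neutrophil chemokine CXCL5 and the NF-kappa-B inhibitor NFKBIA rose. CXCL5 was a low gene, with 3.51, 3.71 and 2.61 TPM against 0.465, 0.420 and 0.332 TPM (1.60, SE 0.24, adjusted p = 0.00501). NFKBIA measured 85.2, 89.6 and 104 TPM against 54.1, 61.5 and 53.4 TPM (0.71, SE 0.13, adjusted p = 0.0141, lost without mimic replicate 4, control replicate 2 or control replicate 4). Neither passed against the other mimics without a block (adjusted p = 0.0509 and 0.11), and both did with it (0.00752 and 0.0216).

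Of 40 interferon-stimulated genes, 39 lay above 0 with a median of 1.03. None passed in limma without a block (5 had an unadjusted p under 0.05, a share not computed over all genes). With a block for replicate number 29 of the 40 were higher, against 968 of all 13750 genes. Residuals of mimic and control number 2 correlated with only 0.04, so whether the numbers pair these 2 groups is uncertain. Their summed level was 1702, 7885 and 1470 TPM in mimic replicates 2, 3 and 4 and 752, 3242 and 681 TPM in control replicates 2, 3 and 4. Replicate 3 was the highest in both groups, and under each number the mimic library was above the control library. In replicates 2, 3 and 4 the sum was 2874, 11890 and 2247 TPM with miR-126 and 928, 3833 and 790 TPM with miR-150. Under each number miR-126 was thus above miR-143, and miR-150 lay between miR-143 and the control. The median difference from the mean of these 2 unlike mimics was 0.13. IFIT1, an interferon-induced RNA-binding protein, measured 23.2, 207 and 21.7 TPM against 3.59, 41.0 and 3.20 TPM (2.38, adjusted p = 0.386).

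Few genes of the cell cycle and of metabolism passed. None of 28 S phase genes passed (median 0.07; 5 at an unadjusted p under 0.05 in limma). Of 30 genes of G2 and M phase (median 0.03), the anaphase activator CDC20 fell from 205, 210 and 193 TPM to 151, 136 and 153 TPM (-0.47, SE 0.09, adjusted p = 0.0128) and the kinetochore gene NDC80 rose from 85.3, 81.2 and 82.8 TPM to 117, 109 and 111 TPM (0.43, SE 0.09, adjusted p = 0.0259). CDC20 was lost without mimic replicate 3 and without control replicate 2, and NDC80 in all 6 fits; against the other mimics NDC80 had an adjusted p of 0.122, and 0.0258 with the replicate block. None of 23 p53 targets passed (median -0.04; 3 at an unadjusted p under 0.05). Of 30 genes of glycolysis and hypoxia (median 0.03), HK2 and PGK1 fell and PFKL rose. PGK1, phosphoglycerate kinase, measured 207, 235 and 173 TPM against 348, 410 and 365 TPM (-0.87, SE 0.14, adjusted p = 0.00697) and was lower than with the other mimics (-0.92, adjusted p = 0.00418); it overlaps ATP7A and is uncertain for that. PFKL, a phosphofructokinase, measured 101, 86.2 and 102 TPM against 49.4, 45.9 and 45.8 TPM (1.02, SE 0.11, adjusted p = 0.000645), and 79.7 to 94.5 TPM with the other mimics.

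In cholesterol synthesis (23 genes, median 0.14), IDI1, the isopentenyl isomerase, rose from 108, 103 and 123 TPM to 170, 154 and 175 TPM (0.57, SE 0.10, adjusted p = 0.011) and was also higher than with the other mimics (0.73, adjusted p = 0.0021); the first call was lost without mimic replicate 4 or control replicate 2. Among 20 genes of zinc transport and storage (median -0.04), SLC39A10 fell and the metallothioneins MT1X and MT1E rose. MT1X measured 27.4, 23.8 and 25.8 TPM against 15.5, 13.2 and 11.3 TPM (0.90, SE 0.15, adjusted p = 0.00712) and MT1E 163, 213 and 202 TPM against 131, 126 and 101 TPM (0.69, SE 0.14, adjusted p = 0.02, lost in 3 of 6 fits without 1 library). Both were as high with miR-126, at 30.6 to 36.0 and 181 to 229 TPM, and metallothioneins are near-identical, so reads may be split among them. Of 20 genes of the insulin-like growth factor system (median -0.12), IGFBP5 alone passed. None of 15 genes of the microRNA machinery (median -0.27, 13 below 0; 2 at an unadjusted p under 0.05) and none of 13 mitochondrially encoded messages (median -0.03; 0 at an unadjusted p under 0.05) passed.

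Among the marker lists, S1PR1 was the only endothelial marker of 19 that passed, and the list's median was -0.01. Of 7 tested markers of fibroblasts, pericytes and smooth muscle none passed (0 at an unadjusted p under 0.05 in limma); their list summed to 48.7 to 70.9 TPM with the mimic and 59.0 to 141 TPM in the control. Among 4 tested lymphatic markers, the membrane mucin PDPN fell from 132, 124 and 130 TPM to 64.2, 53.1 and 55.3 TPM (-1.16, SE 0.11, adjusted p = 0.000593), and it differed by -0.34 from the other mimics (adjusted p = 0.133). The part of these markers in the other results was not tested.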

How the data were processed

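RNA sequencing of HMEC-1 cells gave TPM for 187626 transcripts in 12 libraries; the authors made the deposited TPM with kallisto, and FastQC, sleuth and GRCh38 are also named, per the submitters' processing notes (no version, annotation or filter is stated there). TPM keep no read totals, divide by transcript length, and share a constant sum, so a change in abundant transcripts or in RNA quality moves other values; depth is unknown and precision comes from the spread between libraries. TPM were summed per symbol (36433; 171 transcripts had no gene; 677 tested symbols cover more than 1 Ensembl gene), and a gene was kept where 3 or more libraries reached 1 TPM. limma 3.58.1 (R 4.3.3; trend, two-sided, Benjamini-Hochberg, threshold 0.05) was fitted to log2(TPM + 1) of all 12 libraries with the group as its only term, which understates changes of low genes. Both contrasts were the miR-143 mimic minus the control and minus the mean of the other 2 mimics. The fit and the permutation test were tested on simulated data.

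The 3′ UTR was the longest of a gene's protein-coding transcripts in GENCODE 29 on GRCh38, which held 90.58% of the table's transcripts. Exact permutation tests went through all 20 or 220 assignments of the libraries. The members, lists and sites were chosen with earlier results of these data known. Named genes were the 15 largest falls and rises past the threshold, without overlap between groups and with a mean of at least 5 TPM in 1 group; the 10 largest each way against the other mimics; tested reported targets; and list members past the threshold. One of the 15 falls (also a reported target and matrix gene), 1 other reported target and 1 gene list are not reported here. Residuals of same-numbered libraries correlated with 0.32, 0.66 and 0.37 (miR-126) and 0.59, 0.63 and 0.74 (miR-150) for numbers 2, 3 and 4. The same-numbered library was the best match in each case. The value of 0.74 joins the 2 libraries that favour short transcripts. For the control the values were 0.04, 0.65 and 0.17, and number 3 alone was the best match. What the numbers mark is not in the labels, and pairing was not tested. Alternatives are given in the closing section.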

Additional observations from a re-analysis of the deposited data

How the results depend on the processing

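TPM carry no read depth and 3 libraries a group limit the precision, so calls depend on the setting. Against scrambled RNA (204 lower, 253 higher), 503 and 580 genes were called with the length trend removed, 312 and 395 without both libraries that favour short transcripts, 128 and 138 from the 6 libraries alone, 363 and 401 after quantile normalization and 760 and 819 with array weights. Leaving out 1 library gave 62 to 140 lower and 77 to 199 higher. With a replicate block there were 807 lower and 968 higher, 29 of 40 interferon-stimulated genes among the higher; residual correlations of same-numbered libraries were 0.04, 0.65 and 0.17, so number 2 did not pair.

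Against the other 2 mimics (145 lower, 132 higher), the replicate block gave 550 and 607 and the length trend removed 297 and 401; leaving out 1 library gave 32 to 378 lower and 36 to 220 higher, the highest without miR-150 mimic replicate 4. For transcripts (70 lower, 111 higher) the replicate block gave 204 and 358, and leaving out 1 library 9 to 34 and 23 to 45. The site value kept its sign in all settings run. Against the other 9 libraries it ranged from -0.202 to -0.107 without 1 miR-143 mimic or control library. No miR-126 or miR-150 library was left out for this value. It did not pass with 6-mer sites (-0.123, exact p = 0.05), under the replicate block (-0.162, exact p = 0.25, the smallest possible) or without miR-143 mimic replicate 4 (-0.107, exact p = 0.0727). Against the control it ranged from -0.232 to -0.138 without 1 library and reached -0.248 with the most abundant transcript's 3′ UTR. No named gene changed direction while called. The causes of these differences were not tested.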
